A study of Mus musculus with 3 samples.

Results

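The mRNAs of genes with a Zfp symbol, the mouse name for "zinc finger protein" followed by a number, were followed through 3 RIA-seq libraries. Members were the gene symbols made of Zfp and digits that had 100 or more counts summed over the 3 libraries, so they were chosen by their symbol and their total count, with Zfp42 (Rex1) left out. Of 341 such symbols, 266 met the minimum, among 26886 genes in all and 13288 genes at or above the same minimum. RIA-seq pulls a chosen RNA, with whatever RNA is held to it in fixed cells, out of a lysate with antisense oligonucleotides that are caught on streptavidin beads, and sequences the eluate. All libraries came from undifferentiated, feeder-free mouse E14 ES cells (strain 129/Ola) kept in serum and LIF, fixed with 1% glutaraldehyde for 10 min and hybridized at 37 °C. The groups differed in the oligonucleotides, which were against Actb (β-actin mRNA, the control), Malat1 (a nuclear long noncoding RNA) or Tfrc (the transferrin receptor mRNA). Each group was 1 library of this 1 cell line, so no spread between replicates exists and no test between conditions was made. The folds below compare libraries, and their intervals cover counting error only.

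Most Zfp proteins carry C2H2 zinc fingers, short folds in which a pair of cysteines and a pair of histidines hold a zinc ion so that a helix can read a few bases of DNA. Fingers are usually repeated in tandem and joined by a conserved linker of 5 residues, TGEKP in one-letter code. Many members also carry a KRAB domain, through which the corepressor Trim28 is recruited to silence retroelements and imprinted loci in ES cells, and their genes lie in clusters of recent duplicates. A minority act on RNA, on ribosomes or as chromatin cofactors.

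The sequence of the fingers was read first, because near-identical repeats decide how surely a read can be given to 1 member. In the GENCODE annotation of the NCBIM37 genome, 265 of the 266 members were found and 264 had a coding sequence. A C2H2 finger, taken as a pair of Cys 2 to 4 residues apart, then 12 residues, then a pair of His 3 to 5 residues apart, occurred in 256 members, and 8 had none. The median member held 10 such fingers (range 0 to 37) and 3 linkers (range 0 to 18). The median over all genes with 100 or more counts was 0 for each. The following stretches of coding DNA show a finger of 63 bases from its first Cys codon to its last His codon, with the next 15 bases in capitals, for 5 members in which these capitals encode TGEKP.
Zfp820 (chr17:21956683-21956760, minus strand): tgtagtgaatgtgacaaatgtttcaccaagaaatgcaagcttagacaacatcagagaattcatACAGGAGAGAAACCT
Zfp825 (chr13:74618400-74618477, minus strand): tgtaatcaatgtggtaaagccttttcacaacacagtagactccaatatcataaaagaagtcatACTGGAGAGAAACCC
Zfp932 (chr5:110437856-110437933, plus strand): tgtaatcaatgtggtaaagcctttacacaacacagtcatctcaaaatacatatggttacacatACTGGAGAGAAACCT
Zfp931 (chr2:177802907-177802984, minus strand): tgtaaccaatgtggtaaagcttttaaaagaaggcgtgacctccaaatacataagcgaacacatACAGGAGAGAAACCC
Zfp457 (chr13:67394870-67394947, minus strand): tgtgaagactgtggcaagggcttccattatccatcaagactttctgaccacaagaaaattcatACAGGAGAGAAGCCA
In Zfp57 and Zfp281, which have no TGEKP linker, the capitals mark the same positions after a finger.
Zfp57 (chr17:37146624-37146701, plus strand): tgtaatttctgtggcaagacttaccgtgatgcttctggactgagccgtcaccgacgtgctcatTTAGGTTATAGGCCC
Zfp281 (chr1:138522640-138522717, plus strand): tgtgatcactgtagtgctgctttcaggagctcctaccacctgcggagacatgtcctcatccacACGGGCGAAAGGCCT
All 7 stretches lie in coding exons. Across the members, 1039 linkers were encoded by 169 different runs of 15 bases. The most frequent, actggagagaaaccc, made up 11.6% of them, followed by actggagagaaacct with 8.66% and acaggagagaaacct with 5.20%.

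Shared sequence was common. Of the 266 members, 198 shared 100 nt or more of exon at 80% identity or more with another gene, and 73 did so at 95% or more. The neighbours Zfp97 and Zfp960 on chromosome 17 are the clearest case and were picked after their values were seen. They aligned over 2682 nt at 98.8% identity. In the 240 coding bases that start at the first finger with a TGEKP linker, the pair differ at 4 bases, given in capitals.
Zfp97 (chr17:17281682-17281921, plus strand): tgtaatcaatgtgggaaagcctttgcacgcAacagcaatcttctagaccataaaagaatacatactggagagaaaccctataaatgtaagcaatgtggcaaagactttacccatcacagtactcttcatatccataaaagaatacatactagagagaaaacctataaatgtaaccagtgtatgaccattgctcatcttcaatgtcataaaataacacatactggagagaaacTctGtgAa
Zfp960 (chr17:17224467-17224706, plus strand): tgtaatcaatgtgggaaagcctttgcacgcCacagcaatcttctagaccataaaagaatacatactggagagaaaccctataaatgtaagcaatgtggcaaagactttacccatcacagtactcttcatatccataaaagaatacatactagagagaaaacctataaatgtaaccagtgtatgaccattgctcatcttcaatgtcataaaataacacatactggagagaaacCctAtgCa
Zfp97 had 120 counts in the Actb library, 197 in the Malat1 library and 410 in the Tfrc library, and Zfp960 had 125, 203 and 441. The rule by which reads with several matches were counted is not given in the sources used here. The values of such pairs are therefore uncertain as values of 1 gene.

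The libraries held 10405209 counts (Actb), 10078439 (Malat1) and 14553941 (Tfrc), and 3 counts, the least a share could rest on, are 0.206 to 0.298 per 1000000 counts. Reads of a gene were listed under its Ensembl identifier, here called Ensembl-ID counts, or in a second row named Genome, here called Genome counts. The ES cell genes Pou5f1 (3875, 7983 and 6368 counts) and Nanog (8043, 4257 and 16082) were high, and T, Afp and Sox17 of differentiated lineages had at most 12 counts in any library. Vim (651, 589 and 892 counts) was the most abundant of the 10 markers of other lineages. Mitochondrial leucyl-tRNA synthetase Lars2 alone took 32.05%, 16.97% and 22.19% of the libraries. The 10 most counted genes of each library took 52.7%, 23.6% and 33.4% of it, and Actb itself stood at 73038, 889 and 924 per 1000000 counts. These shares enter the denominator of every fold below, and their part in the folds cannot be told apart from the conditions. Over the Actb library, Malat1 RNA was at 5.81-fold in the Malat1 library and 3.84-fold in the Tfrc library. Tfrc mRNA was at 2.69-fold in the Tfrc library and 2.32-fold in the Malat1 library. In such bulk libraries, fewer cells with a transcript and less of it per cell cannot be told apart.

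The Zfp mRNAs together took a larger share of the Malat1 library and the Tfrc library than of the Actb library. They held 41790 counts in the Actb library, 0.402% of the library (95% Wilson interval 3978 to 4055 per 1000000 counts). In the Malat1 library they held 90358 counts, 0.897% (8907 to 9024 per 1000000 counts). In the Tfrc library they held 107598 counts, 0.739% (7349 to 7437 per 1000000 counts). The share was thus lowest in the Actb control and highest with Malat1 oligonucleotides, and the 3 intervals do not overlap. The summed counts gave a 2.23-fold increase for Malat1 over Actb (2.21 to 2.26), a 1.84-fold increase for Tfrc over Actb (1.82 to 1.86) and a 1.21-fold ratio of Malat1 over Tfrc (1.20 to 1.22). Each of the 266 members had 10 or more counts in every library, so none was lost from a comparison. The 75 symbols under the minimum held 3577 counts in all, and 11 of them had fewer than 10. The nearest to the limit were Zfp619 (100 counts), Zfp251 (102) and Zfp759 (103) inside it, and Zfp647 (96), Zfp174 (95) and Zfp319 (94) outside.

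Member by member, the median fold for Malat1 over Actb was 2.04 (quartiles 1.58 and 2.75), against 1.82 for all 14571 genes with 10 or more counts in both libraries. Zfp mRNAs at a fold of 2 or more numbered 135 (50.8%), against 42.1% of all genes. None had a fold of 0.5 or less, against 0.954% of all genes. The counting interval lay wholly above the median of all genes for 99 members (37.2%, against 29.4%) and wholly below it for 41 (15.4%, against 30.3%). In these shares the members stood above the background at the high side and under it at the low side.

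The same reading for Tfrc over Actb, which shares the control library, gave a median of 1.80 (1.43 and 2.35) against 1.56 for all 14690 genes. Here 110 members (41.4%) had a fold of 2 or more, against 28.6% of all genes. A single member, Zfp791, was at 0.5 or less (0.376%, against 0.388%). The interval was above the median of all genes for 100 members (37.6%, against 27.6%) and below it for 34 (12.8%, against 29.2%). The shift of the median member was thus small next to that of all genes: 1.12 times the median gene with Malat1 oligonucleotides and 1.15 times with Tfrc oligonucleotides. Under a scaling by the median ratio over genes, which sets the median gene near 1, the members' medians were 1.12 and 1.15.

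The Malat1 library set directly against the Tfrc library gave a median of 1.14 against 1.15 for all 16429 genes. A fold of 2 or more was found for 9 members (3.38%, against 4.35%) and of 0.5 or less for 2 (0.752%, against 1.92%), Zfp825 and Zfp759. Intervals were above the median of all genes for 60 members (22.6%, against 22.3%) and below it for 62 (23.3%, against 23.4%). As a group the Zfp mRNAs were at the background in this comparison.

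**Figure D1:**
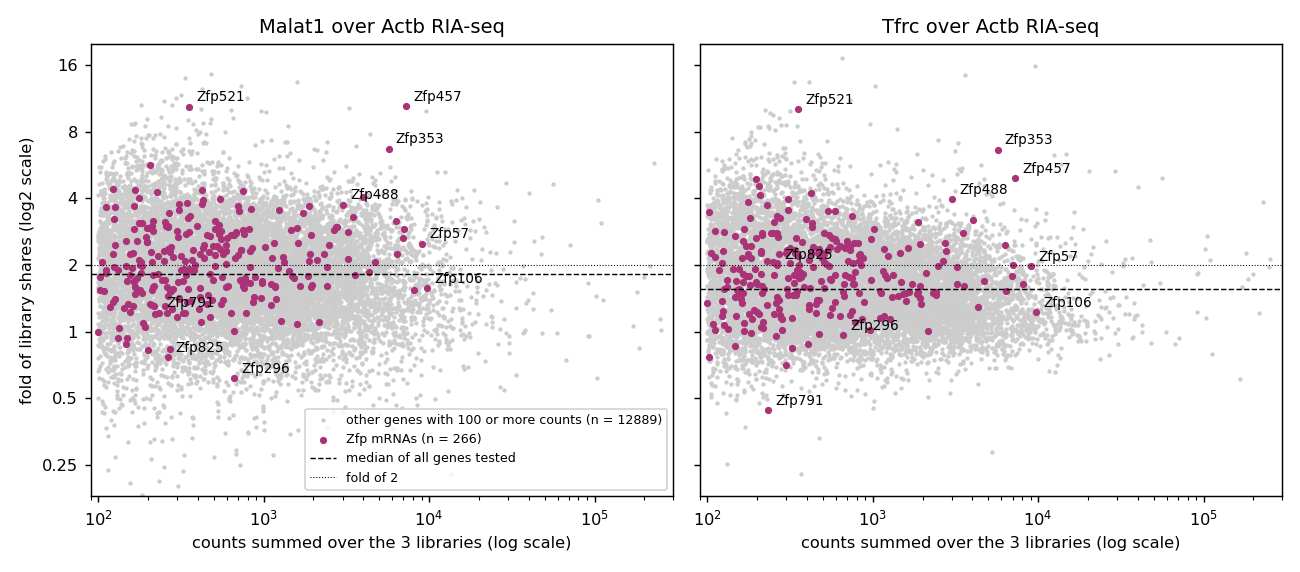
Fold of library shares (vertical axis, log2 scale) against counts summed over the 3 libraries (horizontal axis, log scale) for the 266 Zfp mRNAs (purple) and other genes with 100 or more counts (grey), for Malat1 over Actb (left) and Tfrc over Actb (right). The dashed line is the median of all genes tested (1.82 and 1.56) and the dotted line a fold of 2. The Zfp mRNAs lie within the cloud of genes, with Zfp457, Zfp353 and Zfp521 at its upper edge, and genes beyond the axes are not drawn.

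The members are less abundant than the average gene, with a median summed count of 399.5 against 689, so they were also compared with genes of like count. Among genes with 100 to under 300 counts, the 103 members had a median of 1.85 for Malat1 over Actb, under the 2.00 of all genes there. With 300 to under 1000 counts, the 108 members had 2.13 against 1.88. With 1000 to under 3000, the 38 members had 2.07 against 1.79. The 17 members with 3000 or more counts had 2.65 against 1.68, and 13 of them (76.5%, against 36.1%) had a fold of 2 or more. The distance between the members and other genes thus lay in the members with 300 or more counts, and among the sparse ones it had the opposite sign. For Tfrc over Actb the 4 ranges gave 1.69 against 1.82, 1.97 against 1.62, 1.564 against 1.504 and 1.95 against 1.39. Over all members, 147 (55.3%) were above the median of their own range for Malat1 over Actb, 159 (59.8%) for Tfrc over Actb and 135 (50.8%) for Malat1 over Tfrc.

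The kind of count separates the picture further. Genome counts made up 16.5% of the members' counts in the Actb library, 29.8% in the Malat1 library and 26.8% in the Tfrc library, against 5.25%, 19.0% and 15.1% of all counts. For the median member the Genome share was 11.1%, 19.7% and 19.0%, against 11.2%, 25.2% and 22.3% for the median gene with 100 or more counts. The median member was therefore no richer in Genome counts than other genes, but the 17 members with 3000 or more counts were, at 29.4% against 11.2% for genes of that range. On Ensembl-ID counts alone the members' median fold was 1.69 against 1.41 for all genes (Malat1 over Actb) and 1.53 against 1.26 (Tfrc over Actb). On Genome counts alone, with 10 or more in both libraries for 123 members, it was 3.36 against 3.60 and 2.58 against 2.86. The members were thus above the median gene on Ensembl-ID counts and below it on Genome counts. In 14 members no Genome count was listed in any library, and in 33 the Genome share was above 50%. The highest Genome shares were those of Zfp791 (91.8%), Zfp536 (84.5%), Zfp202 (83.5%), Zfp787 (82.1%) and Zfp407 (77.7%). Their folds for Malat1 over Actb ran from 1.22 (Zfp791) to 4.08 (Zfp407). Zfp131, Zfp353, Zfp640, Zfp830 and Zfp934 were among those listed with no Genome count, and their folds ran from 1.33 (Zfp830, a gene of 1 exon) to 6.71 (Zfp353). At 95% identity Zfp830 shared sequence with 20 genes, Zfp353 with 5, and Zfp640 and Zfp934 with 2 each, so their values are uncertain. Among the 48 members with a Genome share of up to 5%, the median fold for Malat1 over Actb was 1.90 against 1.40 for genes of the same share, and among the 57 with more than 40% it was 2.74 against 2.53.

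**Figure D2:**
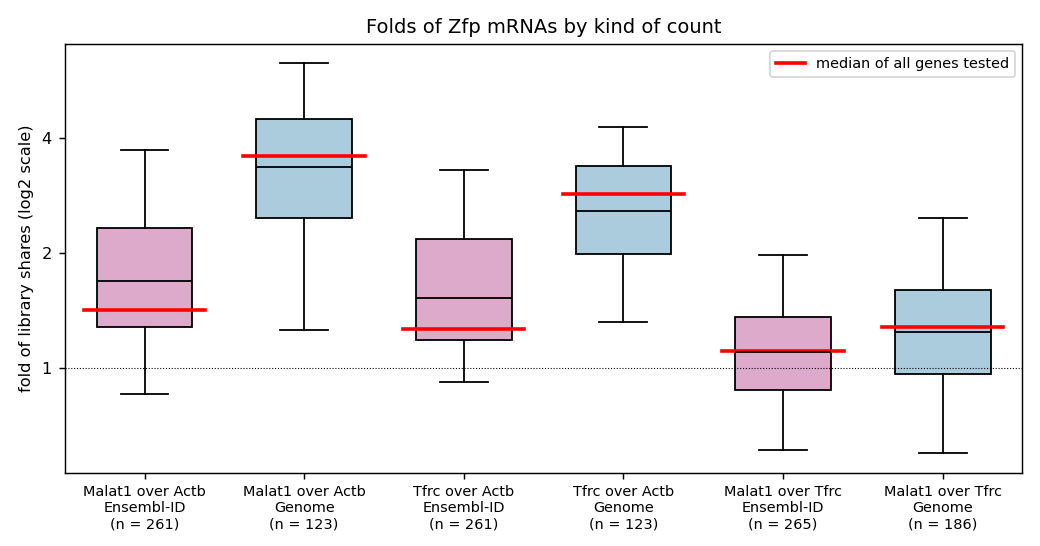
Folds of Zfp mRNAs (vertical axis, log2 scale) in the 3 comparisons, on Ensembl-ID counts and on Genome counts, for members with 10 or more counts of that kind in both libraries. Boxes span the quartiles with the median as a black line, whiskers run from the 5th to the 95th percentile, and the red bar is the median of all genes tested. In the comparisons with the Actb library, the medians of Ensembl-ID counts lie above the red bar and those of Genome counts below it.

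Zfp457, a gene of the zinc finger cluster on chromosome 13 (chr13:67393386-67407348, minus strand) with 18 fingers and 9 linkers, was the member with the widest gap between the Malat1 and the Actb library. It had 403 counts in the Actb library, 4088 in the Malat1 library and 2777 in the Tfrc library, or 38.7, 406 and 191 per 1000000 counts. Its share was lowest in the control and highest with Malat1 oligonucleotides, and no intervals overlap. This is a 10.47-fold increase for Malat1 over Actb (9.45 to 11.6), 4.93-fold for Tfrc over Actb (4.44 to 5.47) and 2.13-fold for Malat1 over Tfrc (2.03 to 2.23). Only 21 of its 7268 counts were Genome counts. Its nearest relatives by sequence did not have its abundance. Zfp458, 86.9% identical over 1860 nt, had 4, 26 and 16 counts, and Zfp595, 81.1% identical over 1863 nt, had 19, 34 and 58. At 95% identity it shared stretches of 108 to 150 nt with 4 genes of other chromosomes. Of these, Grk1 had 69, 489 and 548 counts, St3gal1 had 86, 601 and 654, Yars had 652, 953 and 1069, and Pigl had 551, 1334 and 1655. Their folds for Malat1 over Actb were 7.32, 7.21, 1.51 and 2.50 in this order. For Tfrc over Actb they were 5.68, 5.44, 1.17 and 2.15. Whether reads of these stretches enter the counts of Zfp457 was not tested, so its value is uncertain as well. Per kilobase of exon, on Ensembl-ID counts, the level of Zfp457 was 18.2 per 1000000 counts in the Actb library and 191 in the Malat1 library, the highest level of any member there.

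Zfp353 is a gene of 1 exon (chr8:43164627-43169733, minus strand) that a later RefSeq annotation lists as a pseudogene. It had 339, 2203 and 3148 counts in the Actb, Malat1 and Tfrc libraries, all under its Ensembl identifier. The folds were 6.71 (5.98 to 7.52) for Malat1 over Actb and 6.64 (5.94 to 7.43) for Tfrc over Actb, while Malat1 over Tfrc was 1.01 (0.957 to 1.07). The Malat1 and Tfrc libraries were alike here and the control stood apart. Zfp353 resembles the predicted genes Gm17646 (94.99% over 1937 nt) with 3513, 14387 and 22179 counts and Gm17492 (96.1% over 1702 nt) with 2237, 10142 and 16601 counts. Their folds over Actb were 4.23 and 4.51 for Gm17646, and 4.68 and 5.31 for Gm17492, in the order Malat1 and Tfrc. The member Zfp352, 95.3% identical over 1805 nt, had 27, 40 and 41 counts and folds of 1.53 and 1.09. Near-identical copies thus had values both like and unlike those of Zfp353, and its own value is uncertain.

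Zfp488, the gene of a transcription factor of oligodendrocytes (chr14:34780256-34791950, minus strand), had 295, 1071 and 1637 counts. Its folds were 3.75 (3.29 to 4.26) and 3.97 (3.50 to 4.49) over the Actb library with Malat1 and Tfrc oligonucleotides. It shared sequence at 95% identity with 10 genes, among them Gm17517 (96.8% over 949 nt) with 4525, 20419 and 31222 counts and folds of 4.66 and 4.93. The counts of Gm17517 exceed those of Zfp488 in every library, so the values of Zfp488 are uncertain as well.

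Zfp521 and its relative Zfp423 are transcription factors of many fingers that partner early B cell factors. Zfp521 had 14 counts in the Actb library, 141 in the Malat1 library and 198 in the Tfrc library. The folds were 10.4 (6.004 to 18.01) and 10.1 (5.88 to 17.4), with 77.1% Genome counts, and the wide intervals come from the 14 control counts. Zfp423, with 27 fingers and 66.2% Genome counts, had 1147, 2941 and 2861 counts and folds of 2.65 (2.47 to 2.83) and 1.78 (1.67 to 1.91). Its Genome counts gave folds of 4.28 and 2.49, and its Ensembl-ID counts 1.23 and 1.17.

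**Figure D3:**
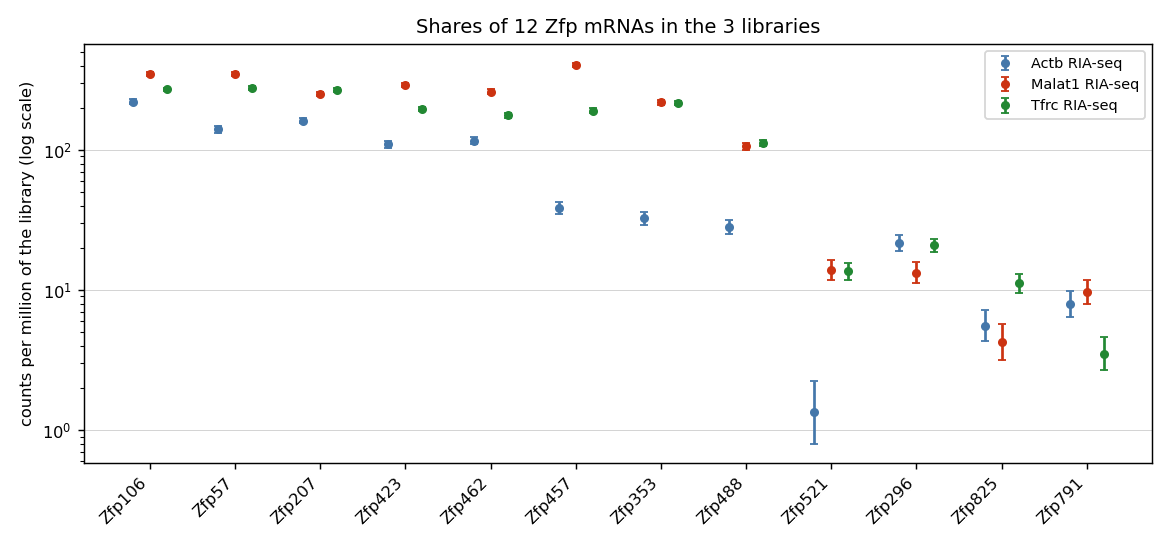
Counts per 1000000 counts of the library (vertical axis, log scale) of 12 Zfp mRNAs in Actb (blue), Malat1 (red) and Tfrc (green) RIA-seq, 1 library each, with 95% Wilson intervals as bars. Zfp457 stands at 38.7, 406 and 191 per 1000000 counts, Zfp521 at 1.35, 13.99 and 13.6, and Zfp296 is lowest in the Malat1 library and Zfp791 in the Tfrc library.

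The remaining members of the 10 with the most counts were Zfp532 (1064, 2992 and 2983 counts), Zfp704 (839, 2578 and 2881) and Zfp710 (882, 1757 and 2079). Their folds over the Actb library were 2.90 and 2.00, 3.17 and 2.46, and 2.06 and 1.69, with Genome shares of 59.5%, 65.8% and 41.8%. Zfp704 shared sequence at 95% with 5 genes.

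The other large folds over the Actb library rested on few control counts. In the Malat1 library these were Zfp101 (16 control counts, fold 5.68), Zfp626 (15, 4.41), Zfp941 (38, 4.37), Zfp120 (18, 4.36), Zfp692 (76, 4.33), Zfp943 (22, 4.27) and Zfp407 (425, 4.08). Zfp407, a gene with long introns, was the exception in depth, with 425, 1680 and 1907 counts, 77.7% of them Genome counts. In the Tfrc library these were Zfp820 (19 control counts, fold 4.89), Zfp101 (16, 4.56), Zfp941 (38, 4.23), Zfp931 (23, 4.13), Zfp386 (30, 3.98) and Zfp182 (21, 3.85). Of these, Zfp820, Zfp931 and Zfp182 had a lower share in the Malat1 than in the Tfrc library, with ratios of 0.522 (0.374 to 0.729), 0.554 (0.401 to 0.765) and 0.550 (0.387 to 0.781). Zfp931 shared sequence at 95% with 46 genes, Zfp626 with 3 and Zfp941 with 1, and their counts are uncertain.

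At the low side, Zfp296, an ES cell gene whose protein works with Klf4, had 225, 134 and 303 counts, or 21.6, 13.3 and 20.8 per 1000000 counts. It was lowest in the Malat1 library, with a fold of 0.615 (0.496 to 0.761) over the Actb library and 0.639 (0.521 to 0.783) over the Tfrc library, while Tfrc over Actb was 0.963 (0.810 to 1.14). Zfp825 had 58, 43 and 163 counts, and was highest in the Tfrc library, with Malat1 over Tfrc at 0.381 (0.272 to 0.533) and Tfrc over Actb at 2.01 (1.49 to 2.71). Its relative Gm15443, 95.3% identical over 817 nt, had 37, 24 and 61 counts, so reads may be divided between the pair. Zfp51, Zfp628 and Zfp513 followed, with folds of 0.822, 0.832 and 0.882 for Malat1 over Actb, each with an interval that includes 1. Zfp51 shared sequence at 95% with 1 gene. Zfp791 had 83, 98 and 51 counts and was lowest in the Tfrc library, with a fold of 0.439 (0.310 to 0.623) over the Actb library. Of its counts 91.8% were Genome counts, and an annotated gene, AC163703.1, overlaps it on the same strand. Zfp212, Zfp251, Zfp84 and Zfp513 were next at 0.707, 0.768, 0.840 and 0.864 for Tfrc over Actb.

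By role, the KRAB proteins that guard imprints and silence retroelements came first. Zfp57, which keeps imprinted regions methylated in ES cells, had 1461, 3540 and 4035 counts, with folds of 2.50 (2.35 to 2.66) and 1.97 (1.86 to 2.10) over the Actb library. Per kilobase of exon, its level of 35.3 per 1000000 counts in the Actb library was the highest of the members. Zfp445, which shares its imprinting role, had 90, 206 and 250 counts (2.36 and 1.99). Zfp809, a silencer of proviruses, had 49, 131 and 161 counts (2.76 and 2.35), and Zfp568, a repressor of a placental Igf2 transcript, had 932, 1680 and 1691 (1.86 and 1.30). Zfp932, a repressor of endogenous retroviruses, had 74, 87 and 172 (1.21 and 1.66), and so was higher in the Tfrc than in the Malat1 library (Malat1 over Tfrc 0.730, 0.564 to 0.945). It is 97.4% identical over 1765 nt to Gm15446, which had 30, 55 and 74 counts and a Malat1 over Tfrc ratio of 1.07, so its own value is uncertain. Of these 5, 3 had a fold of 2 or more for Malat1 over Actb and 1 for Tfrc over Actb, against 42.1% and 28.6% of all genes, with medians of 2.36 and 1.97.

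The partners of the KRAB proteins, which carry no Zfp name, were 14 genes with medians of 1.70 and 1.41. Trim28, the corepressor that KRAB domains bind, had 4900, 4528 and 7301 counts and folds of 0.954 (0.916 to 0.993) and 1.07 (1.03 to 1.10), both under the median gene. Of the 14, 5 had a fold of 2 or more for Malat1 over Actb, among them Cbx1 (3.27), a heterochromatin protein, and Atrx (3.23), a chromatin remodeller, and 1 for Tfrc over Actb (Atrx, 2.20). These are 35.7% and 7.14% of few genes, against 42.1% and 28.6% of all genes, and are not read as a difference. The partners' median Genome share was 9.74%. Genes with 100 or more counts and a Genome share of over 5 to 20% had medians of 1.54 and 1.34. Of those genes, 26.7% and 13.1% were at 2 or more. The 32 Zbtb genes, another class of C2H2 factors that carry a BTB domain in place of KRAB, had medians of 2.43 and 1.84. At a fold of 2 or more were 22 (68.75%) and 15 (46.9%) of them, larger shares than in the Zfp mRNAs (50.8% and 41.4%). The median Genome share was 28.8% in the Zbtb genes and 18.5% in the Zfp mRNAs, and its part in this comparison was not tested. The classes overlap, since a later RefSeq annotation names the members Zfp161, Zfp238 and Zfp295 as Zbtb14, Zbtb18 and Zbtb21.

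Among the members that act on RNA or ribosomes, 6 of the 8 listed genes met the minimum, since Zfp593 had 80 counts in all and Zfp638 was not listed. Their medians were 1.82 and 1.61, against 1.82 and 1.56 for all genes, and their median Genome share was 13.8%. Of the 6, 2 had a fold of 2 or more for Malat1 over Actb and 0 for Tfrc over Actb. For all genes the shares were 42.1% and 28.6%, and with 6 genes these counts are not read as a difference. Zfp598, the ubiquitin ligase that senses collided ribosomes, had 601, 1236 and 1376 counts (2.12 and 1.64). Zfp622, a factor of large ribosomal subunit assembly, had 149, 336 and 248 counts, with a fold of 2.33 (1.92 to 2.82) for Malat1 over Actb and 1.96 (1.66 to 2.31) over the Tfrc library. It was highest in the Malat1 library, apart from both other libraries. Zfp36 (tristetraprolin), which marks AU-rich mRNAs for decay and was the 1 member with CCCH fingers, had 97, 104 and 214 counts (1.11 and 1.58). The RNA-binding protein gene Zfp106, the member with the most counts, had 2305, 3504 and 3942 (1.57 and 1.22). Zfp326 (1.71 and 1.77), linked to splicing, and Zfp346 (1.93 and 1.74), a binder of double-stranded RNA, were the highest of the 6 for Tfrc over Actb.

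The chromatin cofactors, 10 genes, had medians of 2.02 and 1.57, with 5 and 2 at a fold of 2 or more, near the 42.1% and 28.6% of all genes. Zfp827 (391, 1122 and 1262 counts, folds 2.96 and 2.31), a recruiter of the NuRD complex, and Zfp335 (117, 314 and 333, 2.77 and 2.03), a partner of H3K4 methyltransferases, were the highest. Zfp644 (2.47 and 1.99), a partner of the G9a methyltransferase, Zfp462 (2.24 and 1.52) and Zfp451 (2.24 and 1.49), a SUMO ligase, were also above 2 with Malat1 oligonucleotides. Zfp217, Zfp592, Zfp609, Zfp618 and Zfp687 ranged from 1.61 to 1.80 and from 1.03 to 1.70. Genome counts made up 71.9% of the counts of Zfp827, 62.2% of Zfp644 and 65.3% of Zfp618. Zfp827 and Zfp451 each shared sequence at 95% with 1 gene.

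The transcription factors of the list, 10 genes, had medians of 1.89 and 1.63, with 4 and 2 at a fold of 2 or more, no larger a share than the 42.1% and 28.6% of all genes. Those at or above 2 with Malat1 oligonucleotides were Zfp521 and Zfp423, described above, Zfp148 (368, 1058 and 1299 counts, 2.97 and 2.52) and Zfp292 (502, 1375 and 1370, 2.83 and 1.95). Zfp281, a factor of the pluripotency network, had 387, 668 and 804 counts (1.78 and 1.49). Zfp706, a gene linked to the exit from self-renewal, had 618, 663 and 867 (1.11 and 1.00), the smallest folds of the 10 and below the median gene. Zfp143 (1.21 and 1.17), Zfp161 (1.33 and 1.21), Zfp384 (1.79 and 1.68) and Zfp131 (1.996 and 1.58) lay between. Zfp207, which loads the checkpoint protein Bub3 onto kinetochores, had 1691, 2537 and 3898 counts (1.55 and 1.65), and the ubiquitin ligase gene Zfp91 had 272, 721 and 946 (2.74 and 2.49). Genome counts made up 70.8% of the counts of Zfp148.

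The number of linkers, which the choice of members did not use, went with the ratio of Malat1 over Tfrc. The 79 members without a TGEKP linker had a median ratio of 1.20 and the 79 with 1 to 4 had 1.18. The 81 with 5 to 9 linkers had 1.07 and the 25 with 10 or more had 1.05, so that the groups with fewer than 5 linkers lay above the 1.15 of all genes and the others below it. Of the 106 members with 5 or more linkers, 69 (65.1%) lay below the median of all genes, and 43 (40.6%) below 1, against 30.1% of all coding genes. With 100 to under 300 counts the share below 1 was 40.7% against 40.02% of coding genes of that range. With 300 or more it was 40.4% against 27.05%, so the distance from coding genes was seen at 300 or more counts. The distance from members with fewer linkers was seen in both ranges. With 0 and 1 to 4 linkers the share was 26.3% and 24.1% at 100 to under 300 counts, and 21.7% and 20% at 300 or more. For Tfrc over Actb the 4 groups had medians of 1.65, 1.82, 1.89 and 2.23, and for Malat1 over Actb 1.87, 2.16, 2.08 and 1.97. On Ensembl-ID counts, Malat1 over Actb gave 1.44 with 0 linkers, 1.69 with 1 to 4 and 1.89 with 5 or more, so that members with linkers were also higher in the Malat1 library there. Across 264 members, the number of linkers and the ratio of Malat1 over Tfrc had a Spearman rho of -0.191. Members in a cluster share sequence and libraries, so this is a description.

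Genes with 5 or more linkers whose symbol is not Zfp and digits alone were read beside the members. They were 70 genes with 100 or more counts, most of them predicted genes, and Zfp354a and Zfp354c were among them. These genes are not independent of the members. Many of them lie on chromosomes 2 and 4, and several on chromosome 2 share sequence at 95% with Zfp931. They are therefore not separate observations either. Gm14391 aligned with the member Zfp931 at 95.2% identity over 665 nt, and Gm14412 at 95.5% over 132 nt. No restriction on shared sequence was applied to these genes. Their median was 0.803 for Malat1 over Tfrc, and 64 (91.4%) were below the median of all genes. Below 1 were 54 (77.1%), against 30.1% of all coding genes and 40.02% of those with 100 to under 300 counts. For Tfrc over Actb 45 of 69 (65.2%) had a fold of 2 or more, against 28.6% of all genes and 43.7% of genes with 100 to under 300 counts, with a median of 2.30, and for Malat1 over Actb the median was 1.95. The lower ratio was thus wider in these genes than in the Zfp mRNAs. Gm13225, with 8 linkers, had 407, 817 and 1468 counts and a ratio of 0.804, and Gm14391, with 9, had 327, 685 and 1348 and a ratio of 0.734.

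The members with many linkers were also read by position, on the 2 chromosomes with the most members. Chromosome 7 held 65 members, chromosome 17 held 31 and chromosome 13 held 24. On chromosome 17, the 21 members with 5 or more linkers had a median ratio of 0.798, and 15 of them were below 1, among them Zfp97, Zfp960, Zfp820 and Zfp51. The 10 other members there had 1.27. On chromosome 7, the 26 members with 5 or more linkers had 1.24, and 5 were below 1. The 39 other members there had 1.22. Of all coding genes, 31.7% on chromosome 7 and 31.3% on chromosome 17 were below 1. Members with 5 or more linkers thus had unlike ratios on the 2 chromosomes, and on Ensembl-ID counts their medians were closer, at 1.12 on chromosome 7 and 0.954 on chromosome 17. Over all its members chromosome 17 had 0.986 against 1.16 for other genes of that chromosome, and chromosome 7 had 1.22 against 1.14. Chromosome 13 had 1.08 against 1.09, and its members were not split by linkers. Zfp97 and Zfp960 were counted as separate members here, though their values are uncertain as values of 1 gene.

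**Figure D4:**
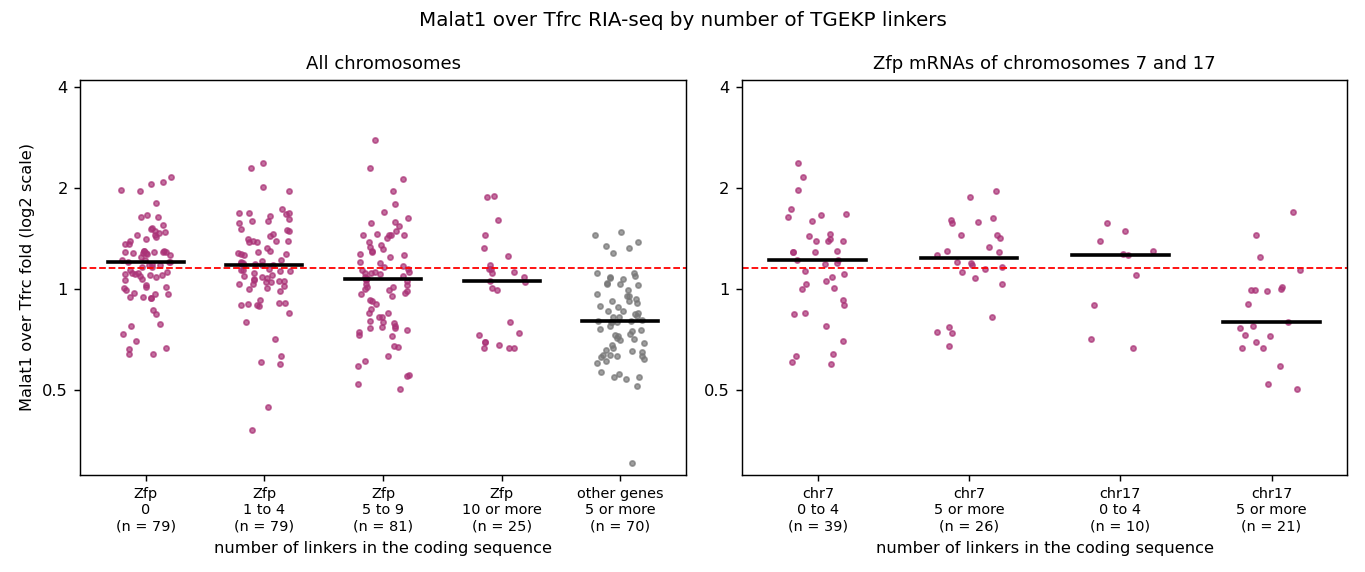
Malat1 over Tfrc fold (vertical axis, log2 scale) by number of TGEKP linkers, 1 point a gene, with the group median as a black bar and the median of all genes (1.15) as a dashed line. Left, Zfp mRNAs in 4 groups and other genes with 5 or more linkers. Right, Zfp mRNAs of chromosomes 7 and 17. Medians run from 1.20 to 1.05 in the Zfp mRNAs and reach 0.803 in the other genes and 0.798 in the chromosome 17 members with 5 or more linkers.

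Shared sequence and kind of count moved with these ratios. Among members that shared no sequence at 95%, the medians with 0, 1 to 4 and 5 or more linkers were 1.20, 1.20 and 1.10. On Ensembl-ID counts alone they were 1.15, 1.11 and 0.995 over all members. With both restrictions they were 1.15, 1.13 and 1.12, against 1.11 for all genes. The medians thus lay close together in the members whose counts are most surely their own. Their shares below 1 were still 30.9%, 34.5% and 46.2%, against 37.7% of all coding genes on Ensembl-ID counts. The part of shared reads in the ratio was not tested. The 73 members that shared at 95% had medians of 2.25 and 2.05 over the Actb library, against 1.96 and 1.74 in the 192 that did not. The 72 members whose gene body overlaps another annotated gene had 1.86 and 1.73, against 2.11 and 1.85 in the 193 that overlap none. Whether the counting used strand is not given in the sources used here, and reads of a member and of a gene antisense to it cannot be told apart.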

How the data were processed

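RIA-seq was done on mouse E14 ES cells with oligonucleotides against Actb, Malat1 or Tfrc, 1 library each, grouped by the labels. The authors deposited raw read counts per gene, whole numbers without normalization, listed under an Ensembl identifier or as Genome. The submitters' processing notes name Bowtie 0.12.7 and the mm9 (NCBIM37) genome, and the counting rule is not given in the sources used here. Depth was 10078439 to 14553941 counts.

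Counts of a symbol were summed and divided by the library total, and folds are ratios of these shares (pseudocount 0, 10 or more counts in both libraries) with 95% intervals on the log scale from the counts. Shares have Wilson intervals. Reads carried no molecular identifiers, so intervals and the floor of 3 counts cover counting error only. Fingers and linkers were searched in the longest coding sequence of each gene (GENCODE, NCBIM37). RefSeq matched 255 members by symbol and 10 by a synonym. Shared exons were found by blastn (BLAST+ 2.17.0, word size 16, e-value 1e-10, same strand). Scripts used Python 3.11.15, numpy 2.4.6, pandas 2.3.3, scipy 1.17.1, matplotlib 3.10.9 and samtools 1.23.1. The fold computation was tested on simulated Poisson counts.

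The members and lists were chosen with earlier results of these data known. Named were the 10 members with the most counts, those with the largest and smallest folds over Actb RIA-seq, those with the highest and lowest Genome shares, and lists of roles from textbook knowledge. Other members are said to be picked. The alternatives were 3 scalings, a pseudocount of 1, minimums of above 0 and of 50 counts in both libraries, a summed minimum of 300, Ensembl-ID or Genome counts alone, and leaving out members that share sequence or overlap genes.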

Additional observations from a re-analysis of the deposited data

How the results depend on the processing

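The direction and the size of the folds depend on what a library is scaled to. For Malat1 over Actb RIA-seq, the median fold, the number of Zfp mRNAs at a fold of 2 or more and the fold of their summed counts were 2.04, 135 and 2.23 as reported. They were 1.12, 22 and 1.22 under median-ratio scaling, 1.13, 22 and 1.24 under 75th-percentile scaling, and 1.24, 31 and 1.36 with a library total that leaves out the 15 genes that were among the 10 most counted in at least 1 library. At these settings 8.27%, 8.27% and 11.7% of members and 7.32%, 7.7% and 10.7% of all genes were at 2 or more. For Tfrc over Actb RIA-seq, reported as 1.80, 110 and 1.84, they were 1.15, 23 and 1.18, then 1.15, 23 and 1.18, then 1.27, 28 and 1.29, so that 8.65%, 8.65% and 28 of 266 members were at 2 or more, against 6.79%, 6.85% and 9.82% of all genes. The median of Malat1 over Tfrc, reported as 1.14, was 0.974, 0.983 and 0.985. The members' median divided by that of all genes stayed at 1.12, 1.15 and 0.984 under each of these scalings, by construction. On Ensembl-ID counts the medians were 1.69, 1.53 and 1.10 (Malat1 over Actb, Tfrc over Actb, Malat1 over Tfrc) and the summed folds 1.88 and 1.61. On Genome counts the medians were 3.36, 2.58 and 1.24 and the summed folds 4.03 and 2.99. Scaled to the Genome total, the medians were 0.926, 0.899 and 0.984 (all genes 0.994, 0.995 and 1.01), the numbers at 2 or more 5 and 3 (4.07% and 2.44%, against 2.41% and 2.13% of all genes), and the summed folds 1.11 and 1.04.

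A minimum of 50 counts left 82 and 61 members at a fold of 2 or more of 173 and 174 tested (47.4% and 35.1%, against 37.6% and 20.8% of all genes). A summed minimum of 300 gave a summed fold of 2.27 for Malat1 over Actb. For Tfrc over Actb it gave 69 members at 2 or more (42.3%, against 24.6% of all genes). Without members that share sequence at 80%, 68 remained, with 33 and 21 at a fold of 2 or more (48.5% and 30.9%, against 42.1% and 28.6% of all genes). Their summed folds were 2.16 and 1.70. Their medians were 1.96 for Malat1 over Actb (against 1.82 for all genes), 1.64 for Tfrc over Actb (against 1.56) and 1.22 for Malat1 over Tfrc (against 1.15). Without members that share at 95%, an alternative chosen after seeing the data, the summed folds were 2.09 and 1.71. In Tfrc over Actb, 69 members (35.8%, against 28.6% of all genes) were at 2 or more. Without members that overlap a gene the summed folds were 2.38 and 1.91. The median ratio of Malat1 over Tfrc of members with 5 or more linkers, 1.07, was 0.995 on Ensembl-ID counts.

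Genome counts scaled to the Genome total put the median of all genes near 1, so a gene whose Genome fold is under that median falls below 1 there. Not all of the 130 folds of the 65 named members could be computed so, and 13 that were 2 or more as reported were below 1. On Genome counts with the library total 0 of them turned below 1. In Malat1 over Actb RIA-seq these were Zfp148 (0.982), Zfp536 (0.699), Zfp57 (0.810), Zfp598 (0.745), Zfp809 (0.855), Zfp827 (0.993), Zfp91 (0.811) and Zfp943 (0.606). In Tfrc over Actb RIA-seq these were Zfp148 (0.998), Zfp536 (0.942), Zfp809 (0.900), Zfp827 (0.978) and Zfp943 (0.886). With a pseudocount of 1, each of the 130 folds of named members stayed within its own interval. The cause of these differences was not tested. No paired analysis was possible because each condition had 1 library, and for the same reason no library could be left out.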
